A study of Homo sapiens with 12 samples.

Results

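The question asked here was, gene by gene, whether a glioblastoma line changed in the same way as another when each was made resistant to temozolomide. All 12 RNA sequencing libraries of the series entered the comparison, 3 from each of 4 human cell lines. The parents were U251MG and U87MG, widely used lines derived from glioblastoma. U251TR and U87TR are the resistant derivatives, U251TR of U251MG and U87TR of U87MG, each raised in culture by exposing the parent again and again to temozolomide at rising concentrations. All lines grew in DMEM with fetal bovine serum. The labels give no dose and leave unsaid whether the drug was in the medium when RNA was taken. Each parent has 1 resistant derivative, so resistance and any other change gained in making it cannot be told apart.

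Genes were kept when they reached 1 FPKM (fragments per kilobase of transcript scaled to the mapped fragments of a library, a level per length) in at least 3 of the 12 libraries. This left 15449 of the 31679 distinct symbols in the deposited table. For each gene the change in U251 (U251TR minus U251MG) was subtracted from the change in U87 (U87TR minus U87MG), on the log2(FPKM + 1) scale. A positive difference means that the change was higher in U87, and a negative difference that it was lower there. Genes were called at a Benjamini-Hochberg adjusted p under 0.05 in limma. A gene was put among opposite changes when the difference and both lines' changes were called and the changes had opposite signs. It was put among changes in 1 line when the difference and that line's change were called and the other line's change was not.

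Temozolomide is an alkylating drug that leaves methyl groups on DNA bases. The most toxic lesion is a methylated guanine, which the enzyme MGMT reverses in a single step and which otherwise engages mismatch repair, strand breaks and cell death. Besides MGMT and mismatch repair, genes of the antioxidant response under the transcription factor NRF2, of inflammatory signalling under NF-kB and of cell identity have been studied in resistant glioblastoma cells.

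FPKM sums ran from 696371 to 786642, and 13135 to 14122 genes were at 1 FPKM or more in a library. The sums were lower in U251TR (696371 to 732699) than in U251MG (762510 to 786642). Those of U87MG (740769 to 771003) and U87TR (714857 to 754147) overlapped. FPKM is already scaled to mapped fragments, so these sums do not give sequencing depth. Within U251MG, replicate 2 was the odd one: its rank correlations with replicates 1 and 3, over genes, were 0.977 and 0.978, and these had 0.993 with each other. U87MG replicate 3 stood apart less, at 0.983 and 0.987 where replicates 1 and 2 had 0.993. The codes that U87TR libraries carry lie in a block of numbers apart from that of the other 9 libraries, so that block and resistance cannot be told apart in U87, nor in the difference between the lines. Whether a line's libraries were grown as separate cultures is not said in the labels, and the p-values then measure only the spread between these libraries. Of the markers checked, VIM and CD44 were at 365 FPKM or more in every library, while SOX2 lay between 112 and 242 FPKM in U251 and at 0 to 0.3 FPKM in U87, so this glioma stem cell marker was all but absent from the U87 lines. The leukocyte markers PTPRC and CD3E did not exceed 0.08 FPKM anywhere. These are bulk samples, in which fewer cells of a kind and less RNA per cell cannot be told apart.

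The lines differed in how 7350 genes changed (47.6% of those tested). In 2384 of them (15.4%) the change was higher in U87, and in 4966 (32.1%) it was lower there. A difference of at least 2-fold was seen in 2846. Taken line by line, 5193 genes rose (33.6%) and 3029 fell (19.6%) in U251TR, while 1635 rose (10.6%) and 2659 fell (17.2%) in U87TR. Opposite changes made up 1074 genes (6.95%): 836 rose in U251TR and fell in U87TR (5.41%), and 238 did the reverse (1.54%). Changes in 1 line were far more numerous, at 5491 genes (35.5%), of which 2775 rose (18%) and 1408 fell (9.11%) in U251TR, and 463 rose (3%) and 845 fell (5.47%) in U87TR. A further 462 (2.99%) changed in the same direction by different amounts, and in 323 (2.09%) the difference passed although neither line's change did.

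The balance of these directions moved with the scaling of the libraries. Over all genes tested the median difference was -0.17 on the deposited scale, and -0.01 with median-of-ratios factors, -0.24 with each library brought to a common sum (TPM) and 0.01 after quantile normalization. The share of called genes whose change was higher in U87 was accordingly 32.4% as deposited, 47% with median-of-ratios factors, 27.9% on the TPM scale and 48.6% after quantile normalization. The opposite changes numbered 528 and 398 with median-of-ratios factors and 539 and 411 after quantile normalization, in place of 836 and 238. Without U251MG replicate 2 they numbered 1214 and 379, without U87MG replicate 3 they numbered 871 and 281, and without U87MG replicate 2 they numbered 537 and 168. A core did not depend on these choices: 367 of the 836 and 118 of the 238 stood in the same class under each of the 3 other scalings and without each of the 12 libraries in turn. By the same rule, among genes called in U251TR alone, 1427 of the 2775 rises and 829 of the 1408 falls kept their class. Among genes called in U87TR alone, 210 of the 463 rises and 274 of the 845 falls did.

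**Figure D1:**
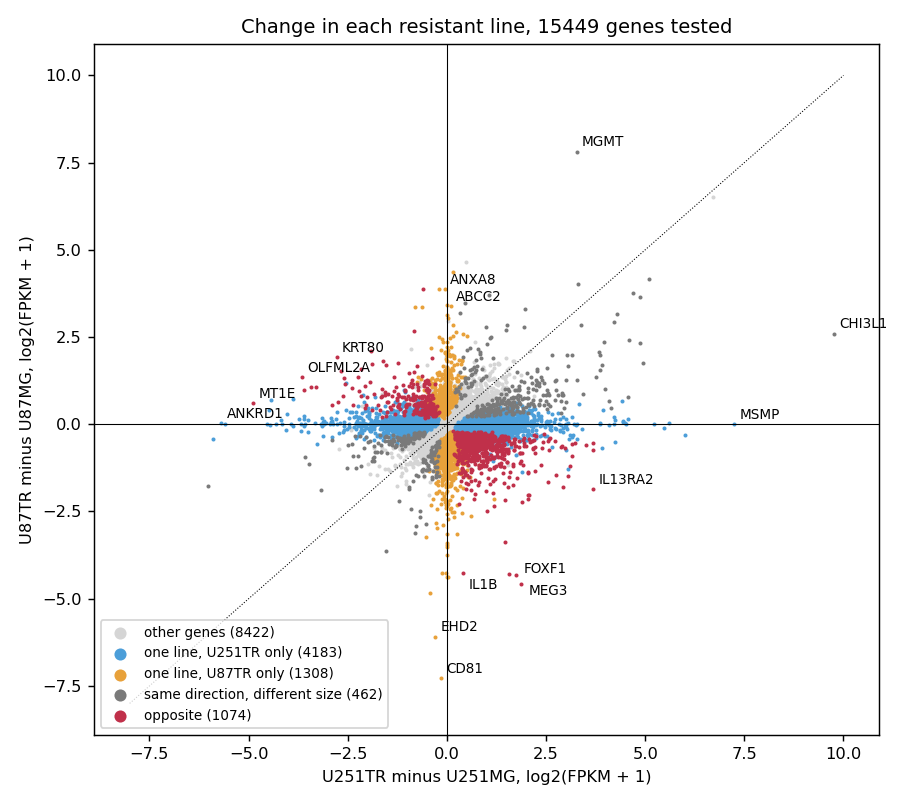
Change of each of the 15449 genes tested, in U251 (horizontal axis) and in U87 (vertical axis), both as differences of mean log2(FPKM + 1); the dotted line marks equal changes. Opposite changes (1074 genes, red) fill the upper left and lower right, and changes in 1 line (blue for U251TR, orange for U87TR) lie along the axes.

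Among genes that rose in U251TR and fell in U87TR were surface receptors, matrix and adhesion genes. IL13RA2 encodes a high-affinity receptor for interleukin 13 that is studied as a glioma surface antigen. Its levels were 6.65, 4.92 and 7.08 FPKM in U251MG, 97, 90 and 86.5 in U251TR, 59.6, 57.7 and 51.1 in U87MG, and 13.9, 14.4 and 15.9 in U87TR. Every U251TR library was above every U251MG library, and every U87TR library was below every U87MG library. The log2 change was 3.69 in U251 and -1.86 in U87, and the difference was -5.55 (SE 0.16, adjusted p = 6.11e-10). The level of the gene thus changed places: U87MG stood above U251MG, and U251TR stood above U87TR.

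MEG3, a long noncoding RNA made from the maternal copy of an imprinted locus, stood at 9.47, 6.7 and 8.09 FPKM in U251MG, 46.5, 27.2 and 25.6 in U251TR, 23, 24.7 and 21.1 in U87MG, and 0 in all 3 U87TR libraries. It was listed at 0 in U87TR, so no fold is given there, and the difference on the log2(FPKM + 1) scale was -6.45 (SE 0.27, adjusted p = 7.48e-09). CDH11, which encodes a mesenchymal cadherin, was also listed at 0 in U87TR, with 4.88, 11.3 and 4.33 FPKM in U251MG, 30, 29 and 29.1 in U251TR, 2.42, 3.33 and 3.53 in U87MG, and 0 in all 3 U87TR libraries. Its U251MG libraries were uneven, replicate 2 being the high one, and the groups did not overlap in either line. The difference in CDH11 was -4.09 (SE 0.35) on all libraries and -4.46 without that replicate. GMPR, a reductase of purine salvage, was likewise listed at 0 in U87TR, with 10.3, 20.8 and 9.73 FPKM in U251MG, 38.9, 42.9 and 47.7 in U251TR and 2.69, 2.74 and 1.65 in U87MG, and had a difference of -3.40 (SE 0.33).

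EFEMP1 encodes the matrix protein fibulin-3. It stood at 17.8, 14.4 and 17.7 FPKM in U251MG, 125, 149 and 125 in U251TR, 7.05, 7.98 and 8.18 in U87MG, and 1.67, 1.39 and 1.49 in U87TR, and the difference was -4.72 (SE 0.15, adjusted p = 1.22e-09). No library of a resistant line overlapped its parent. FOXF1, a forkhead transcription factor of mesenchymal tissue, was highest in U87MG and nearly absent from U87TR, with 0.47, 0.43 and 0.28 FPKM in U251MG, 4.09, 3.49 and 3.44 in U251TR, 27.2, 24.4 and 10.9 in U87MG, and 0.06, 0.01 and 0.01 in U87TR. The rise in U251TR stopped well short of the level in U87MG. CARD16, which encodes an inhibitor of caspase-1 and is nearly identical to part of CASP1, so that the authors' counting could have split their reads, had a difference of -4.06 (SE 0.26).

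GDF15 encodes a secreted stress-response cytokine of the TGF-beta family. It stood at 324, 37.8 and 309 FPKM in U251MG, 588, 502 and 684 in U251TR, 114, 118 and 72.2 in U87MG, and 18.5, 20.6 and 21.9 in U87TR, and U251MG replicate 2 was far below the other libraries of U251MG. The difference was -4.13 (SE 0.91, adjusted p = 0.00351), and -3.12 without that replicate. The 2 changes behind it were less secure: the rise in U251TR missed the threshold in 3 of 21 alternatives and the fall in U87TR in 5 of 21, with adjusted p up to 0.0695 and 0.0757. The other 15 genes shown in the plot of opposite changes kept all of their calls in those 21 alternatives.

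The reverse pattern, a fall in U251TR and a rise in U87TR, included the type II keratin genes KRT80 and KRT7, the nestin gene and the desaturase gene SCD among the 8 named for size. KRT80, a type II keratin, stood at 297, 148 and 269.7 FPKM in U251MG, 28, 35.6 and 33.9 in U251TR, 12.1, 11.8 and 10.3 in U87MG, and 47.2, 46.3 and 45 in U87TR. The parents were far apart and the resistant lines came close to each other. The difference was 4.71 (SE 0.29, adjusted p = 1.72e-07). KRT7, another type II keratin, behaved alike at lower level, with a difference of 4.19 (SE 0.32). Keratins have near-identical relatives, and reads could have been shared between them.

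NES encodes nestin, the intermediate filament of neural progenitors. Its levels were 178, 229.6 and 179 FPKM in U251MG, 45.3, 39.8 and 42.8 in U251TR, 6.63, 7.95 and 8.8 in U87MG, and 24.6, 25.6 and 26.3 in U87TR. On the log2 scale nestin fell by 2.16 in U251TR and rose by 1.60 in U87TR, and in neither line did the libraries overlap. The difference was 3.76 (SE 0.16, adjusted p = 9.91e-09). OLFML2A, a secreted olfactomedin-domain protein, had the largest difference of the 8 genes named in this direction, 5.01 (SE 0.29, adjusted p = 1.16e-07), with 16.5, 26.2 and 17.9 FPKM in U251MG, 0.74, 0.67 and 0.54 in U251TR, 7.09, 8.42 and 12.8 in U87MG, and 30, 23.6 and 22 in U87TR. Its fall in U251TR was the larger part of it. S100A4, a calcium-binding protein linked to cell motility, stood at 71.3, 180.5 and 72.2 FPKM in U251MG, 20.6, 19.7 and 19.2 in U251TR, 8.82, 8.39 and 11.1 in U87MG, and 26.8, 22.5 and 27.5 in U87TR. Here replicate 2 of U251MG was the high one, and the difference was 3.60 (SE 0.39).

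TUFT1, which encodes tuftelin, stood at 55.9, 31.5 and 55.6 FPKM in U251MG, 10.6, 12.2 and 12 in U251TR, 3.96, 3.55 and 3.24 in U87MG, and 17.3, 20.1 and 18.8 in U87TR, a difference of 4.01 (SE 0.26). The secreted axon guidance gene SEMA3B stood at 33.9, 30.7 and 31.6 FPKM in U251MG, 9.98, 9.17 and 10.1 in U251TR, 3.74, 4.37 and 6.47 in U87MG, and 22.9, 16.3 and 18.9 in U87TR, a difference of 3.43 (SE 0.22). In both genes the resistant lines lay between the parents. SCD, the desaturase that makes monounsaturated fatty acids, stood at 123, 301 and 136 FPKM in U251MG, 57.5, 55.1 and 62.6 in U251TR, 32.6, 37.1 and 82.7 in U87MG, and 162, 149.9 and 146 in U87TR. Both parents held 1 high library, U251MG replicate 2 and U87MG replicate 3. The SCD difference was 3.23 (SE 0.49, adjusted p = 0.000242), 2.83 without U251MG replicate 2 and 3.64 without U87MG replicate 3.

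**Figure D2:**
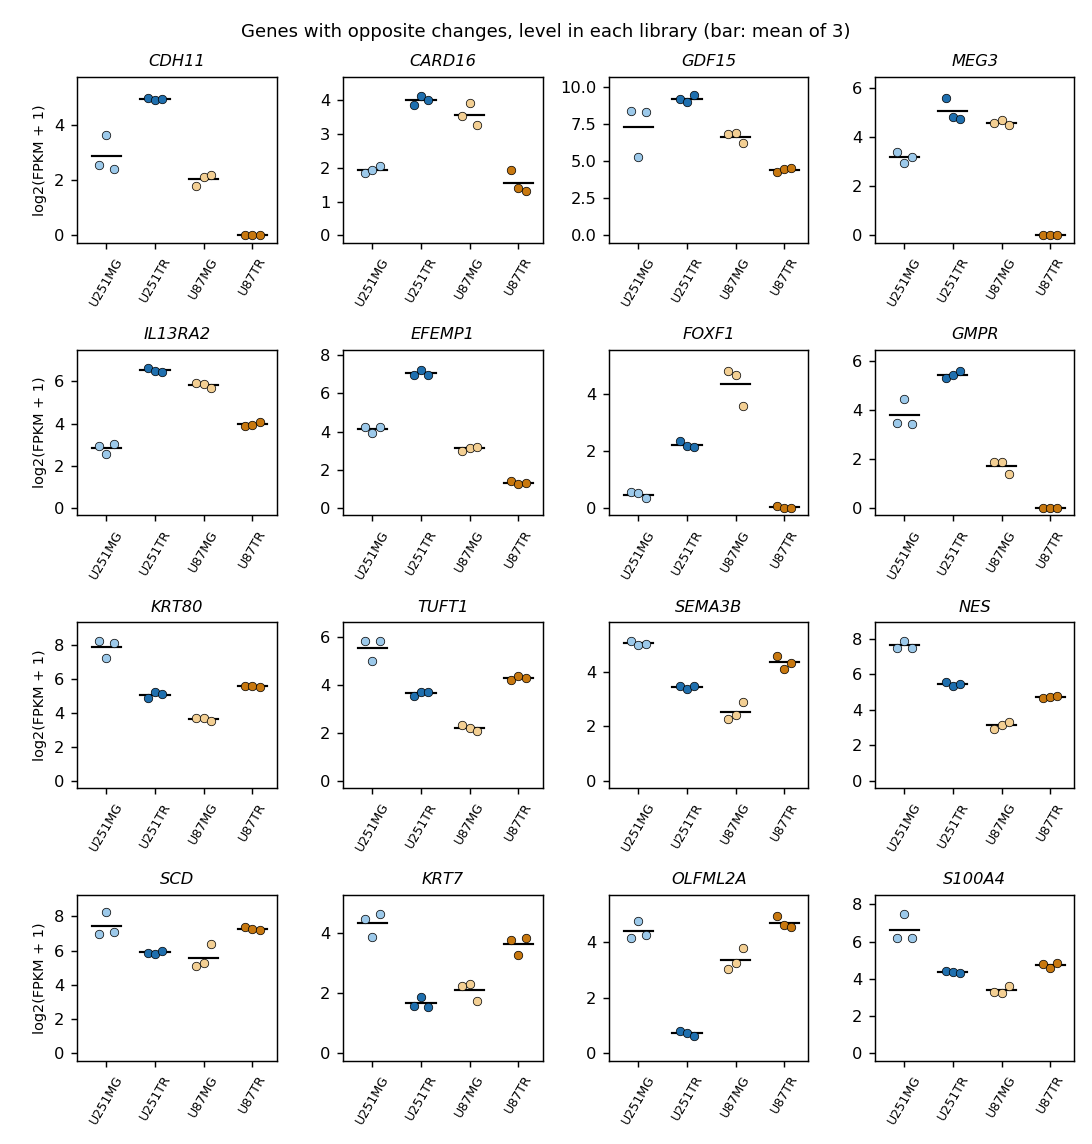
Level of 16 genes with opposite changes in each library, as log2(FPKM + 1), by cell line, with a bar at the mean of 3. In the first 8 panels U251TR lies above U251MG and U87TR below U87MG, and in the last 8 the order is reversed. U251MG replicate 2 is the middle point of its group and stands off in GDF15 and S100A4.

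Genes that changed in 1 line were of 2 kinds. In some the other line did not express the gene in either state, and in the rest the gene was present in the other line and its change did not pass. A change that did not pass was not thereby shown to be absent. The other line was counted as within 1.5-fold for 2301 of the 2775 rises and 1143 of the 1408 falls in U251TR. For changes in U87TR this held for 360 of the 463 rises and 710 of the 845 falls. Of the 2775 genes that rose in U251TR only by these calls, 486 (17.5%) were under 1 FPKM in all 6 U87 libraries and 1329 (47.9%) were at 10 FPKM or more in both U87MG and U87TR. Of the 1408 that fell in U251TR, 277 (19.7%) and 709 (50.4%) were so. Of the 463 that rose in U87TR, 186 (40.2%) were under 1 FPKM in all 6 U251 libraries and 137 (29.6%) were at 10 or more in both groups, and of the 845 that fell in U87TR, 164 (19.4%) and 441 (52.2%) were so. Of the 61 genes of these classes named here, 19 had a change in the other line that passed in at least 1 of 21 alternatives. Each is given with its gene, save SRGN and ACSM5, where this happened with a pseudocount of 0.1 FPKM.

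The 6 rises in U251TR with the largest differences, among genes whose U87 change had a 95% interval within 1.5-fold, were of the first kind. MSMP, which encodes a small secreted protein, stood at 0.69, 0.49 and 0.56 FPKM in U251MG, 279.9, 161 and 298 in U251TR, 0 in all 3 U87MG libraries, and 0 in all 3 U87TR libraries, and the difference on the log2(FPKM + 1) scale was -7.24 (SE 0.26, adjusted p = 2.38e-09). SPARCL1, a matrix glycoprotein made by astrocytes, went from 0.85, 0.79 and 0.88 FPKM in U251MG to 113, 73.5 and 81.5 in U251TR and did not exceed 0.12 FPKM in U87. The adhesion molecule gene CADM3 went from 0.05, 0.12 and 0.08 to 50.2, 40.9 and 50.6 FPKM. These genes were silent or nearly so in both U87 lines, and no library of U251TR overlapped U251MG. BPIFB4, B3GAT1 and GGT5 had differences of -5.23, -4.52 and -4.45. B3GAT1 encodes an enzyme that helps make the HNK-1 carbohydrate of neural cells, and GGT5 a gamma-glutamyltransferase.

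Rises in U251TR of genes well expressed in U87 were chosen for display after their values were seen. CRIP2, a LIM-domain protein, stood at 5.78, 6.33 and 5.17 FPKM in U251MG, 140.0, 145 and 154 in U251TR, 17.7, 20.4 and 42.2 in U87MG, and 26, 23 and 29.1 in U87TR. U251TR stood far above U251MG, and the U87 groups overlapped. Its U87 change was 0.06 (95% interval -0.46 to 0.58), and the difference was -4.39 (SE 0.34). Without U87MG replicate 3, its highest library, the rise of CRIP2 in U87TR passed as well (adjusted p = 0.0171) and the difference was -4.02. SQRDL, which encodes the mitochondrial enzyme that oxidizes sulfide, stood at 5.55, 6.18 and 5.24 FPKM in U251MG, 68.3, 64.5 and 77.3 in U251TR, 46.1, 49.5 and 45.6 in U87MG, and 38.7, 43.7 and 45.4 in U87TR. Its level in U251TR came to lie above that of both U87 lines, where the change was -0.14 (95% interval -0.35 to 0.06). The difference in SQRDL was -3.56 (SE 0.13, adjusted p = 3.12e-09). The membrane protein gene TMEM54 and the annexin gene ANXA6 had differences of -3.10 (SE 0.21) and -3.01 (SE 0.27).

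Among falls in U251TR, ANKRD1, which the coactivator YAP switches on, went from 103, 87.3 and 112 to 0.95, 1.08 and 0.83 FPKM, while no U87 library exceeded 0.51 FPKM. The difference was 5.72 (SE 0.16, adjusted p = 5.04e-10). TOX3, a nuclear factor of the HMG-box family, went from 57.6, 68.4 and 55.6 to 2.28, 2.47 and 2.57 FPKM and was listed at 0 in all 6 U87 libraries. NTM, a neural adhesion molecule, RGS8, a regulator of G protein signalling, and F13A1, the A chain of coagulation factor XIII, fell likewise, with differences of 4.31, 3.93 and 4.31. MAGEA12, a cancer-testis gene of a near-identical family, had a difference of 4.45. In all 6 the U87 lines had next to no transcript in either state.

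Falls in U251TR alone also reached genes that U87 expressed. SMS, which encodes spermine synthase, stood at 735, 719 and 789 FPKM in U251MG, 165, 178 and 176 in U251TR, 183, 194 and 223 in U87MG, and 194, 207 and 207 in U87TR. U251TR fell to the level that both U87 lines held, where the change was 0.02 (95% interval -0.15 to 0.20), and the difference was 2.13 (SE 0.11, adjusted p = 5.4e-08). TWIST1, a transcription factor of mesenchymal cells, stood at 31.9, 28.9 and 28.6 FPKM in U251MG, 5.83, 7.55 and 7.43 in U251TR, 16.9, 19.3 and 20.2 in U87MG, and 21.3, 21.4 and 21.9 in U87TR. The U87 groups did not overlap, but their change of 0.19 did not pass (adjusted p = 0.203). The difference in TWIST1 was 2.15 (SE 0.15). TPST2, a sulfotransferase of the Golgi, and PHF11, a zinc finger protein, had differences of 2.21 (SE 0.12) and 2.14 (SE 0.15). These 4 genes were also chosen after their values were seen.

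Rises in U87TR only were often of genes that U251 did not express. ABCC2 encodes the efflux pump MRP2, which exports conjugated drugs. It stood at 0.23, 0.37 and 0.45 FPKM in U251MG, 0.46, 0.43 and 0.42 in U251TR, 3.83, 3.65 and 2.9 in U87MG, and 51.4, 43.5 and 41.2 in U87TR, and the difference was 3.29 (SE 0.17, adjusted p = 4.33e-08). SRGN, the proteoglycan serglycin, went from 20.1, 20.3 and 19.6 FPKM in U87MG to 105, 118 and 117 in U87TR and did not exceed 0.14 FPKM in U251. The annexin gene ANXA8, which has near-identical copies, stood at 1.62, 2.09 and 2.96 and 53.6, 40.6 and 43.3 FPKM in the U87 lines and had a difference of 3.92. All 3 were far from overlapping in U87 and close to 0 in U251. SYT13, of the synaptotagmin family, RNASE1, a secreted ribonuclease, and ACSM5, a mitochondrial acyl-CoA synthetase, had differences of 3.41, 3.02 and 2.42.

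The rises in U87TR of genes that U251 expressed, again chosen after their values were seen, were smaller. RNASEH2B, a subunit of the enzyme that removes ribonucleotides from DNA, stood at 23.8, 18.7 and 26.6 FPKM in U251MG, 25.6, 21.4 and 27.5 in U251TR, 2.3, 3.38 and 2.63 in U87MG, and 11.4, 11.6 and 12.5 in U87TR. Its difference was 1.67 (SE 0.20, adjusted p = 4.09e-05). PRRC2B stood at 110.1, 91.2 and 108 FPKM in U251MG, 103, 109 and 114 in U251TR, 37, 43 and 40.5 in U87MG, and 125, 121 and 107 in U87TR, a difference of 1.45 (SE 0.13). In both genes U87MG was the low group and U87TR moved toward the level of the U251 lines. PVRL1, which encodes the adhesion molecule nectin-1, and STK38L, a kinase of the NDR family, had differences of 1.30 (SE 0.24) and 1.21 (SE 0.16). The U251 change of STK38L passed as a fall with median-of-ratios factors and after quantile normalization.

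Falls in U87TR included losses to near 0 of genes that every other line expressed. CD81, a tetraspanin of the cell surface, stood at 156, 198 and 155 FPKM in U251MG, 145, 149 and 164 in U251TR, 169, 169.9 and 183 in U87MG, and 0.08, 0.29 and 0.01 in U87TR. The 9 libraries of the other lines lay close together, and the 3 of U87TR were near 0. The U251 change was -0.14 (95% interval -0.39 to 0.11), and the difference was -7.14 (SE 0.16, adjusted p = 2.59e-10). EHD2, an ATPase of caveolae, stood at 16.7, 19.7 and 16.2 FPKM in U251MG, 14, 13.7 and 14.2 in U251TR, 57.5, 63.1 and 83.1 in U87MG, and 0 in all 3 U87TR libraries. Its U251 change of -0.30 (95% interval -0.58 to -0.03) did not pass, but it passed as a fall in 4 of 21 alternatives, among them median-of-ratios factors and quantile normalization. The EHD2 difference was -5.79 (SE 0.18, adjusted p = 7.36e-10).

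SNX6, a sorting nexin of endosomal retrieval, stood at 68.5, 67.2 and 69.1 FPKM in U251MG, 66.8, 60 and 60.5 in U251TR, 36.5, 38.7 and 42.4 in U87MG, and 1.08, 1.03 and 1.1 in U87TR. Its U251 change was -0.13 (95% interval -0.30 to 0.04) and passed as a fall with median-of-ratios factors (adjusted p = 0.0338). PHLDA2, an imprinted growth-restraining gene, stood at 98, 42.7 and 90.2 FPKM in U251MG, 71.5, 65.7 and 75.2 in U251TR, 51, 56.7 and 45.9 in U87MG, and 1.42, 1.67 and 2.06 in U87TR. U251MG replicate 2 was the low library of its group, and the difference of -4.23 was -3.86 without it. Without that replicate the U251 change of PHLDA2 passed as well. SERPINB7, a protease inhibitor, and the cancer-testis gene MAGEA1, which was listed at 0 in U87TR, had differences of -3.52 and -3.76, and both were next to absent from U251. E2F7, which represses targets of E2F factors, moved from 32.2, 28.2 and 24.4 FPKM in U87MG to 0, 0.02 and 0.02 in U87TR and stood at 27.9, 12.3 and 28.4 in U251MG and 17.1, 15.7 and 14.8 in U251TR. Its difference was -4.43 (SE 0.34), and without U251MG replicate 2, the low library, it was -4.05 and the fall in U251TR passed.

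**Figure D3:**
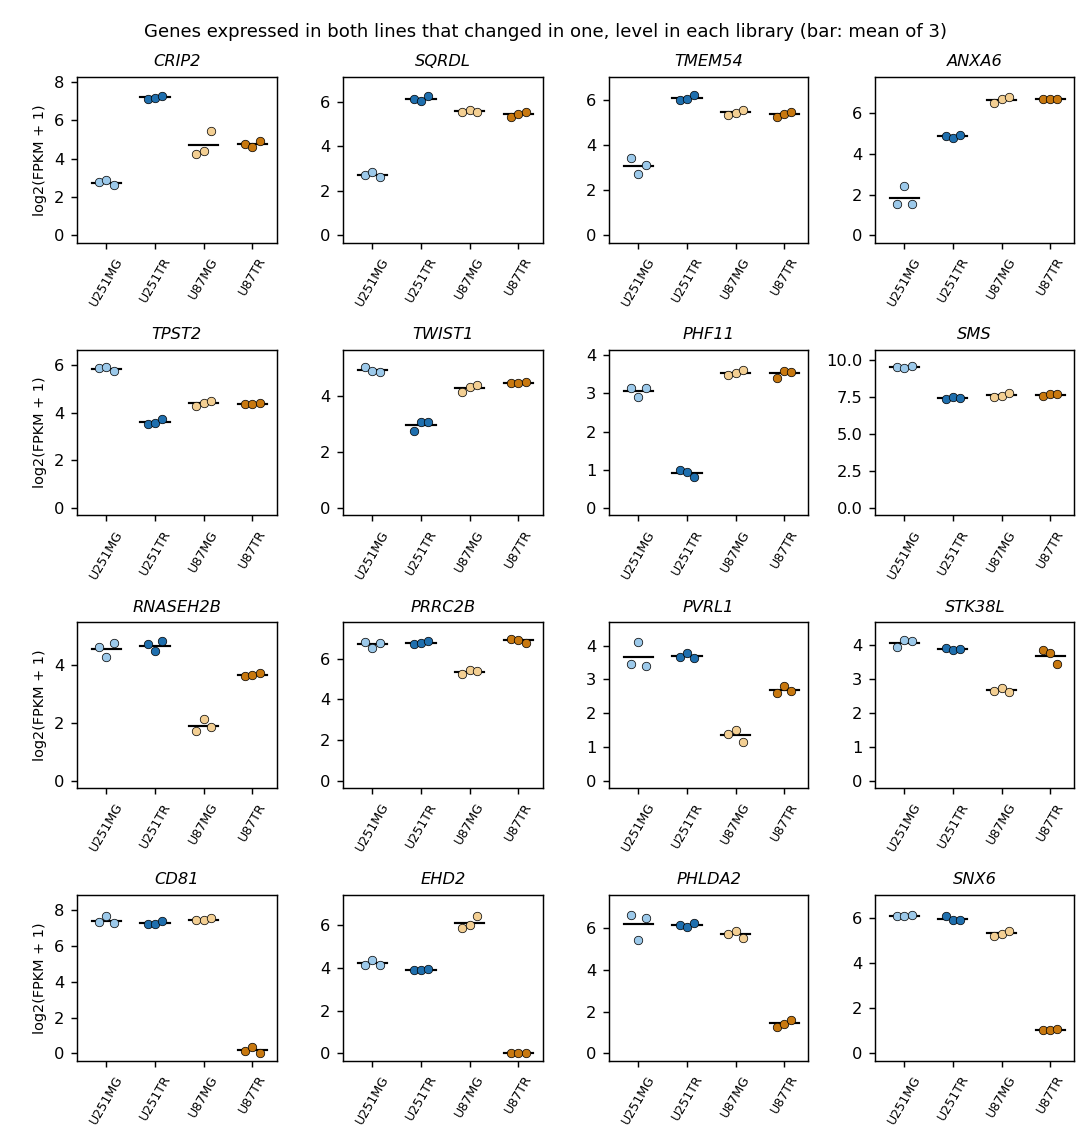
Level of 16 genes expressed in both lines that changed in 1, in each library, as log2(FPKM + 1), with a bar at the mean of 3; rows show rises in U251TR, falls in U251TR, rises in U87TR and falls in U87TR. CD81 and EHD2 lie at or near 0 in all 3 U87TR libraries and well above it in the other 9.

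Some of the largest differences belonged to genes that moved the same way in both lines. MGMT, the methylguanine repair enzyme, was listed at 0 in all 6 parental libraries, at 8.73, 7.7 and 9.58 FPKM in U251TR and at 232, 227 and 213 FPKM in U87TR. The 3 U87TR libraries were far above the 3 of U251TR. The difference on the log2(FPKM + 1) scale was 4.54 (SE 0.13, adjusted p = 5.04e-10). CHI3L1, a secreted glycoprotein of mesenchymal glioblastoma, stood at 2.07, 2.34 and 1.63 FPKM in U251MG, 3028, 2138 and 2746 in U251TR, 69.3, 86 and 85.5 in U87MG, and 502, 463 and 495 in U87TR. It started lower in U251MG and ended higher in U251TR, with a difference of -7.17 (SE 0.19, adjusted p = 4.34e-10). RARRES3, a phospholipase induced by retinoids, rose far more in U251TR (difference -3.79, SE 0.16). The membrane metalloprotease gene MMP14 and KCTD4 fell more in U251TR, with differences of 2.47 and 2.63. MMP14 stood at 9.56, 10.5 and 10.1 FPKM in U251MG, 0.69, 0.25 and 0.5 in U251TR, 284, 292 and 268 in U87MG, and 229, 194 and 198 in U87TR, and its fall in U87TR did not pass with a pseudocount of 0.1 FPKM (adjusted p = 0.158). The chemokine gene CXCL14 fell in both lines, standing at 310.0, 585 and 349.9 FPKM in U251MG, 4.28, 8.63 and 3.56 in U251TR, 2.47, 2.41 and 2.67 in U87MG, and 0.02, 0.04 and 0.06 in U87TR. Its difference of 4.27 depended on the added 1 FPKM: it was 2.03 with a pseudocount of 0.1 FPKM and 4.72 with 5 FPKM, where the fall in U87TR did not pass (adjusted p = 0.0608).

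Gene lists chosen from general knowledge were then set beside all genes tested. Their counts are read against the shares of all genes given above: 15.4% higher in U87, 32.1% lower in U87, 33.6% up and 19.6% down in U251TR, and 10.6% up and 17.2% down in U87TR.

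Interferon-stimulated genes, which encode antiviral proteins, rose widely in U251TR and in part in U87TR. All 28 were tested; 26 rose in U251TR and 15 rose in U87TR, and none fell in either. In 24 the change was lower in U87, and in 1, ISG20, it was higher. The median change was 2.51 in U251 and 0.78 in U87, and the median difference was -1.13. The median difference stayed negative under the 3 other scalings, and 24 members were lower in U87 whichever library was left out. IFI44L, an interferon-induced gene, stood at 1.06, 0.72 and 0.86 FPKM in U251MG, 16.8, 15.9 and 12.9 in U251TR, 7.06, 7.44 and 7.07 in U87MG, and 6.72, 5.53 and 4.7 in U87TR. It rose in U251TR, its U87TR libraries were all below those of U87MG, and the U87 change of -0.31 did not pass (adjusted p = 0.102). Without U87TR replicate 1 it passed as a fall (adjusted p = 0.0449). The IFI44L difference was -3.41 (SE 0.19, adjusted p = 6.76e-08). IFITM1, a membrane protein that blocks virus entry, had a difference of -2.72 (SE 0.30) and did not exceed 0.3 FPKM in any U87 library.

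The promoters of these genes could be searched for the interferon-stimulated response element, since RefSeq promoter windows (build GRCh38.p14, 250 bases before to 50 after the start) matched 20 of the 28. The letters GAAA, any 2 bases and GAAA again, on either strand, were found in 15 of the 20 (75.0%) and in 2.95% of the 10058 promoters of tested genes that matched. Of those 15 genes, 14 had a change lower in U87 and 1 a change higher there, beside 24 and 1 of all 28 tested. The window of IFI44L, chr1:78620198-78620497 on the plus strand, is shown because its gene had the largest difference among called members with the element. It holds the element 2 times, and the gene rose in U251TR alone by these calls. Capitals mark the matches.
IFI44L: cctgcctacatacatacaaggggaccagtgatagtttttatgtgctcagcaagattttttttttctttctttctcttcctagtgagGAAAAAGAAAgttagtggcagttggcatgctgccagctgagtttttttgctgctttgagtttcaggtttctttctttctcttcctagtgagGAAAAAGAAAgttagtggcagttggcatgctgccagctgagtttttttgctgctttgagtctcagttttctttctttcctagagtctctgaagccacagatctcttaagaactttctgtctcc

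Genes that load and present peptides on MHC class I, many of them induced by interferon, rose in U251TR in the main and in part in U87TR. Of 14 tested, 12 rose and 1 fell in U251TR, and 7 rose and none fell in U87TR. In 9 the change was lower in U87 and in 1, PSMB10, it was higher, with a median difference of -0.65. PSMB9, a catalytic subunit of the immunoproteasome, stood at 36.8, 33 and 35.5 FPKM in U251MG, 117, 119.9 and 145 in U251TR, 36.2, 39.9 and 39.8 in U87MG, and 32.9, 33.4 and 37.4 in U87TR. It rose in U251TR alone by these calls, and the U87 libraries overlapped; the difference was -1.98 (SE 0.13, adjusted p = 3.65e-07). HLA-B, a heavy chain with near-identical relatives, rose in both lines, from 15, 9.1 and 13.7 to 66.4, 57.8 and 76.5 FPKM in U251 and from 105, 110.4 and 143 to 198, 179 and 202 in U87. Its difference was -1.64 (SE 0.24).

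NF-kB response genes, which encode cytokines, chemokines and feedback inhibitors, rose in U251TR and moved both ways in U87TR. Of 23 tested, 17 rose and 1 fell in U251TR, whereas 5 rose and 6 fell in U87TR. The change was lower in U87 in 19 and higher in 2 (TNFAIP2 and CXCL1), with medians of 1.09 in U251, -0.16 in U87 and -1.39 for the difference. Opposite changes were seen in IL1B, TNFAIP3 and CXCL3. IL1B, which encodes the inflammatory cytokine interleukin 1 beta, stood at 0, 0.09 and 0.04 FPKM in U251MG, 2.36, 1.68 and 2.21 in U251TR, 100.3, 128 and 121 in U87MG, and 3.64, 5.45 and 5.98 in U87TR. U251TR stayed far below U87MG even after its rise, and U87TR lost most of its parent's transcript. The difference was -5.86 (SE 0.22, adjusted p = 3.19e-09). CCL2, a chemokine that attracts monocytes, stood at 6.63, 34.8 and 9.36 FPKM in U251MG, 215, 219 and 201 in U251TR, 10.2, 10.1 and 8.79 in U87MG, and 5.02, 5.68 and 6.35 in U87TR. Its U251MG replicate 2 was the high one, and its difference of -4.59 (SE 0.58) was -5.26 without it. Without that replicate the U87 change of CCL2 passed as a fall.

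IL6 stood at 1.93, 1.21 and 2.2 FPKM in U251MG, 62.4, 50.8 and 60.9 in U251TR, 8.78, 17.7 and 36.6 in U87MG, and 31, 26 and 30.7 in U87TR. The U251 groups were far apart, while the U87MG libraries were spread over a wide range that reached the level of U87TR. The IL6 difference was -3.75 (SE 0.50, adjusted p = 9.63e-05), and without U87MG replicate 3 it was -3.26 and the rise in U87TR passed (adjusted p = 0.0048). The letters GGG, any 2 bases and TTTCC, an NF-kB site, on either strand, were found in 9 of 17 matched promoters of the list (52.9%) and in 2.14% of all. In 8 of the 9 genes the change was lower in U87, beside 19 of all 23 tested members of the list. The window of IL6, chr7:22726950-22727249 on the plus strand, is shown because its gene had the largest difference among called members with the site. It holds a single match, in capitals. The gene was picked for display after its values were seen.
IL6: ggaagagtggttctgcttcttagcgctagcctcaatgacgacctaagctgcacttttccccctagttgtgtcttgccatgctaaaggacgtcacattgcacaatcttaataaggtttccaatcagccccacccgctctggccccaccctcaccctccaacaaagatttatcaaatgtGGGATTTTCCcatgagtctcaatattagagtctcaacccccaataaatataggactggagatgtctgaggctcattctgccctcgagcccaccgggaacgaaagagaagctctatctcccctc

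Receptors of cytokines and members of the interleukin 1 family were also more often lower in U87 than higher. Of 17 tested, 7 rose and 2 fell in U251TR, while 1 rose and 7 fell in U87TR, and the change was lower in U87 in 10 and higher in 1, IL18. IL4R, the interleukin 4 receptor gene, stood at 0.76, 1.18 and 0.57 FPKM in U251MG, 16.9, 15.2 and 18.4 in U251TR, 4.36, 6.14 and 4.91 in U87MG, and 3.86, 3.94 and 2.95 in U87TR, a difference of -3.70 (SE 0.22, adjusted p = 1.16e-07). The gene rose in U251TR from near 0, and its U87 change of -0.42 did not pass (adjusted p = 0.0612), but passed as a fall without U251MG replicate 2 (adjusted p = 0.0285). CEBPB, a transcription factor of inflammatory and mesenchymal programs, stood at 120.2, 60.4 and 132 FPKM in U251MG, 258, 259 and 291 in U251TR, 227, 260.0 and 204 in U87MG, and 111, 119.5 and 112 in U87TR and was an opposite change, with a difference of -2.44 (SE 0.32).

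Cell cycle genes of G2 and mitosis rose widely in U251TR and, with 1 exception, did not pass in U87TR. Of 24 tested, 20 rose and none fell in U251TR, while 1 rose and none fell in U87TR. The change was lower in U87 in 16 and higher in none, with a median difference of -0.69. Leaving out single libraries gave 15 to 20 lower. AURKA, a mitotic kinase, stood at 36.5, 45.6 and 35.6 FPKM in U251MG, 83.1, 106 and 98 in U251TR, 114, 111 and 83.7 in U87MG, and 81.6, 87 and 87.6 in U87TR. The U251 groups were apart, and the U87 groups overlapped; the difference was -1.52 (SE 0.19, adjusted p = 4.82e-05). Without U87MG replicate 3, the low library, its fall in U87TR passed (adjusted p = 0.0341). KIF2C, a kinesin that depolymerizes microtubules, had a difference of -1.48 (SE 0.15), and without U251MG replicate 2 its fall in U87TR passed (adjusted p = 0.00749). TOP2A, which encodes a topoisomerase that separates sister chromatids, stood at 63.8, 102 and 69.8 FPKM in U251MG, 193, 195 and 147 in U251TR, 73.7, 69.3 and 66.7 in U87MG, and 68.8, 74.6 and 67.9 in U87TR, a difference of -1.18 (SE 0.22, adjusted p = 0.000982). In U251MG its replicate 2 was the high one.

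The letters TTTGAA of the cell cycle homology region (CHR), on either strand, were found in 12 of 19 matched promoters of the G2 and mitosis list (63.2%) and in 9.76% of all. In 6 of the 12 genes the change was lower in U87, beside 16 of all 24 tested members of the list, and in none was it higher. The window of TOP2A, chr17:40417847-40418146 on the minus strand, is shown because it holds 2 matches, one on each strand, in capitals; it too was picked after its values were seen.
TOP2A: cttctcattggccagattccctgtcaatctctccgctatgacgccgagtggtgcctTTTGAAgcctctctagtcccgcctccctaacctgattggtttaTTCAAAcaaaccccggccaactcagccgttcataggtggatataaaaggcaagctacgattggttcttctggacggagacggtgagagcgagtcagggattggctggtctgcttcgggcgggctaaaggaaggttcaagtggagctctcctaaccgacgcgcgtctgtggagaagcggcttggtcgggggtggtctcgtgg

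Double-strand break and Fanconi genes rose in U251TR in the main. Of 30 tested, 16 rose and 3 fell in U251TR, while 1 rose and 1 fell in U87TR, and the change was lower in U87 in 16 and higher in 2 (LIG4 and ATR). FANCI, a partner in the complex that is ubiquitinated at stalled forks, stood at 27.5, 38.1 and 25.4 FPKM in U251MG, 97.2, 86.2 and 76.3 in U251TR, 49.6, 46.1 and 45.1 in U87MG, and 52, 50.7 and 46.4 in U87TR, a difference of -1.42 (SE 0.19, adjusted p = 8.78e-05). The U87 groups overlapped, and U251TR stood above all other lines. FANCG, of the Fanconi core complex, had a difference of -1.58 (SE 0.21).

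Repair genes that act on temozolomide lesions, a list of 23, were mixed. In U251TR 11 rose and 5 fell, and in U87TR MGMT was the 1 that rose and 6 fell. The change was lower in U87 in 10 and higher in 3 (MGMT, MSH3 and MSH6). XRCC1, which holds base excision repair enzymes together, was an opposite change, with 25.7, 29 and 25.8 FPKM in U251MG, 48.4, 48.6 and 52 in U251TR, 34.3, 36.7 and 29.3 in U87MG, and 21.6, 24.2 and 25.5 in U87TR. The U251TR libraries stood above all others and those of U87TR below all others, and the difference was -1.34 (SE 0.14, adjusted p = 1.12e-05). The glycosylase gene MPG was an opposite change as well. Of the mismatch repair genes, MSH6 fell in U251TR and had a difference of 0.60 (SE 0.19, adjusted p = 0.0227). The fall missed the threshold in 5 of 21 alternatives (adjusted p up to 0.104), among them the TPM scale and without U251MG replicate 2. The MSH6 difference missed it in 4 of 21 (adjusted p up to 0.0562), among them without U87MG replicate 3. The difference of PMS2 did not pass, at 0.07 (95% interval -0.18 to 0.32).

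NRF2 targets, the genes of the antioxidant response, rose widely in U251TR and in part in U87TR. Of 22 tested, 18 rose and none fell in U251TR, while 6 rose and 2 fell in U87TR. The change was lower in U87 in 18 and higher in 1, the efflux pump gene ABCC2. The median was 1.31 in U251, 0.11 in U87 and -1.23 for the difference. OSGIN1, an oxidative stress-induced growth inhibitor, stood at 2.29, 1.58 and 2.64 FPKM in U251MG, 21.8, 25.8 and 23.6 in U251TR, 32.7, 26 and 17.8 in U87MG, and 13.5, 16.3 and 15.1 in U87TR. It was an opposite change, with a difference of -3.67 (SE 0.27, adjusted p = 6.96e-07), and its fall in U87TR missed the threshold in 3 of 21 alternatives. AKR1C1, an aldo-keto reductase with near-identical relatives, rose in both lines, from 0.59, 1.15 and 0.36 to 43, 36 and 39 FPKM in U251 and from 45.6, 43.4 and 43 to 231, 229.9 and 254 in U87, and its difference was -2.18 (SE 0.20). Its U251MG levels lay near the added 1 FPKM, and the size of the difference ran from -3.31 to -0.65 over 21 alternatives.

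NQO1, a quinone reductase and a common readout of NRF2, stood at 262, 239.7 and 247 FPKM in U251MG, 907, 916 and 1026 in U251TR, 557, 448 and 251.04 in U87MG, and 344, 385 and 413 in U87TR. Among the U87MG libraries replicate 3 was the low one, and the groups overlapped. The NQO1 difference was -1.99 (SE 0.30, adjusted p = 0.000232), and -2.32 without that replicate, where the fall in U87TR also passed. The ferritin genes FTL and FTH1, which store iron and have many processed copies, rose in U251TR alone by these calls. FTL stood at 2005, 1884 and 1922 FPKM in U251MG, 10563, 11131 and 11472 in U251TR, 3959.9, 3522 and 2392 in U87MG, and 2339.8, 2471 and 2811 in U87TR, a difference of -2.86 (SE 0.21, adjusted p = 6.6e-07). Its U87MG replicate 3 was low too, and without it the difference was -3.07 and the fall in U87TR passed. FTH1 had a difference of -1.60 (SE 0.20). Of 16 iron genes tested the change was lower in U87 in 8 and higher in 1, SLC39A14.

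TFRC, the transferrin receptor gene, was a small opposite change, with 138, 146 and 135 FPKM in U251MG, 163, 172 and 159.9 in U251TR, 143, 134 and 131 in U87MG, and 119, 116 and 103 in U87TR. The groups did not overlap in either line, and the difference was -0.51 (SE 0.11, adjusted p = 0.00194). Its U251 call was lost in 4 of 21 alternatives and its U87 call in 5, other scalings among them. For ferroptosis, a cell death by lipid peroxidation for which the series is titled, 25 genes of suppressors and 25 of drivers were tested. Among suppressors the change was lower in U87 in 11 and higher in 4, and among drivers it was lower in 4 and higher in 7. The peroxidase gene GPX4 and the cystine transporter gene SLC7A11 had differences of -0.05 (95% interval -0.31 to 0.21) and -0.30 (-1.16 to 0.57), which did not pass. The sign of the GPX4 difference turned in 3 of 21 alternatives and that of SLC7A11 in 1. AIFM2, which encodes the ubiquinone reductase FSP1, rose in both lines and by less in U87TR (difference -1.06, SE 0.15).

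HMOX1, a heme oxygenase, did not pass on all libraries, with a difference of 0.52 (95% interval -0.49 to 1.52). U251MG held 47.9, 14.1 and 41.2 FPKM, replicate 2 being the low one, and without it the difference was 1.04 (adjusted p = 8.55e-05). ACSL4, which joins polyunsaturated fatty acids to coenzyme A, fell in U251TR alone by these calls, with a difference of 0.76 (SE 0.18). SAT1, a polyamine acetyltransferase, stood at 271, 155 and 264 FPKM in U251MG, 73.5, 58.1 and 62.6 in U251TR, 55.9, 54.8 and 69.5 in U87MG, and 87.6, 78.7 and 84.6 in U87TR, a difference of 2.25 (SE 0.26, adjusted p = 2.67e-05). Its fall in U251TR passed, and its U87 change of 0.48 did not (adjusted p = 0.074) but did with a replicate block and without U251MG replicate 2.

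Lipid desaturation genes were among the opposite changes of the reverse kind. Of 24 genes of fatty acid synthesis and desaturation the change was higher in U87 in 7 and lower in 8, and 3 fell in U251TR and rose in U87TR: SCD, FADS2 and ELOVL5. FADS2, which desaturates polyunsaturated fatty acids, stood at 28.1, 73.7 and 30.4 FPKM in U251MG, 7.13, 9.21 and 7.4 in U251TR, 2.67, 3.76 and 4.35 in U87MG, and 7.95, 7.61 and 7.71 in U87TR. U251MG replicate 2 was the high library, and the difference of 3.15 (SE 0.40) was 2.72 without it. The rise of FADS2 in U87TR missed the threshold in 7 of 21 alternatives. For the 23 genes of cholesterol synthesis and uptake the counts rested on single libraries: 6 were higher in U87 and 3 lower on all libraries, 6 and 8 without U251MG replicate 2, and 10 higher without U251MG replicate 1.

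Lysosomal genes rose widely in U251TR and moved less in U87TR, more often downward. Of 27 tested, 18 rose and none fell in U251TR, while 2 rose and 7 fell in U87TR, and the change was lower in U87 in 18 and higher in 1, LAMP2. The median difference was -0.81. Opposite changes included CTSD, CTSL, HEXA and GRN, which encode 2 proteases, a subunit of a glycolipid hydrolase and progranulin. HEXA stood at 54.8, 58.5 and 50.9 FPKM in U251MG, 109, 107 and 113 in U251TR, 63, 62.8 and 53.9 in U87MG, and 15.1, 14.8 and 15.5 in U87TR. The U87TR libraries lay far below all others, and the difference was -2.91 (SE 0.11, adjusted p = 3.92e-09). CTSS, a cathepsin of antigen-presenting cells, had a difference of -2.81 (SE 0.17), and its U87 change passed as a fall in 4 of 21 alternatives. Among 24 proteasome genes 12 had a change lower in U87 and none higher, and the count was 7 with median-of-ratios factors.

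Ribosomal protein genes fell in U251TR more than in U87TR. Of 30 tested, 23 fell and 1 rose in U251TR, while 4 fell and none rose in U87TR. The change was higher in U87 in 18 and lower in 1, RPL13, with a median difference of 0.38, but after quantile normalization the counts were 6 and 6 and the median was 0.086. RPL10 stood at 2908, 2353 and 2709 FPKM in U251MG, 758, 796 and 894 in U251TR, 2124, 2270.3 and 2209.7 in U87MG, and 1682, 1763 and 1867 in U87TR, a difference of 1.38 (SE 0.12, adjusted p = 3.98e-06). U251TR was the low group, and the fall of RPL10 in U87TR missed the threshold in 4 of 21 alternatives. RPS4X had a difference of 1.19 (SE 0.16). Both have many processed pseudogenes, so their reads could have been split. The 13 mitochondrially encoded transcripts, whose share was 7.25% to 8.76% of the FPKM in each library, had 4 changes higher in U87 and none lower, and after quantile normalization 1 and 3 with a median of -0.211 in place of 0.134.

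Epithelial and glial identity genes differed in both directions. Of 10 epithelial genes tested, 7 had a change higher in U87 and 1 lower (KRT19), with 5 opposite changes: KRT7, KRT8, KRT18, KRT80 and CLDN7. Their median was -0.39 in U251, 1.18 in U87 and 1.40 for the difference. EPCAM did not exceed 1.19 FPKM and CDH1 0.08 FPKM in any library, so these defining markers of epithelium were at or near 0, while KRT8 and KRT18 stood at 29.3 to 71.2 FPKM in U251. In U87 the rise of KRT18 lay at low levels, from 0.48, 0.62 and 0.54 FPKM in U87MG to 1.19, 1.29 and 1.51 in U87TR. KRT8 went from 10.7, 13.4 and 18.4 FPKM in U87MG to 35.4, 33.9 and 33.1 in U87TR. Of 9 astrocyte genes tested, 3 rose and 4 fell in U251TR, 3 rose and 1 fell in U87TR, and the change was higher in U87 in 5 and lower in 3. SLC1A3, a glutamate transporter of astrocytes, and the calcium-binding protein gene S100B were among those that fell in U251TR. GFAP, the astrocyte filament, stood at 20.3, 29.9 and 18.3 FPKM in U251MG, 392, 381 and 415 in U251TR, 0.51, 0.34 and 1.41 in U87MG, and 1.78, 2.28 and 1.19 in U87TR. The rise in U251TR was large, while the U87 lines stayed below 2.3 FPKM, where the call was lost in 12 of 21 alternatives. The difference was -3.41 (SE 0.32, adjusted p = 5.67e-06). PDGFRA, a growth factor receptor of proneural glioma, stood at 41.9, 94.9 and 43.1 FPKM in U251MG, 8.33, 7.56 and 7.2 in U251TR, 0.69, 0.69 and 0.88 in U87MG, and 1.26, 0.21 and 1.15 in U87TR, a difference of 2.75 (SE 0.41), which was 2.37 without U251MG replicate 2, the high library.

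Of 23 genes of mesenchymal glioblastoma, the change was higher in U87 in 12 and lower in 6. Those that fell in U251TR and rose in U87TR were TNC, FOSL2, LGALS3, S100A10 and ANXA1, and those that did the reverse were CD44, CEBPB and PLAUR. TNC, the matrix glycoprotein tenascin-C, stood at 1007, 979.7 and 1020.1 FPKM in U251MG, 192, 183 and 203 in U251TR, 265, 281 and 361 in U87MG, and 465, 439 and 419.7 in U87TR, a difference of 2.93 (SE 0.14, adjusted p = 2.76e-08). The parents lay well apart, and the order of the lines was reversed between parents and resistant lines. In the Notch list of 14 genes, where 7 changes were higher in U87 and 2 lower, LFNG, a sugar transferase that modifies Notch receptors, was an opposite change with a difference of 2.42 (SE 0.30).

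Matrix, growth factor and MAPK genes held further opposite changes. Of 26 TGF-beta and BMP pathway genes the change was lower in U87 in 12 and higher in 6. LTBP1, which holds latent TGF-beta in the matrix, stood at 2.5, 1.68 and 2.48 FPKM in U251MG, 17.7, 16.8 and 18.3 in U251TR, 103, 109 and 118 in U87MG, and 80, 81.8 and 74.2 in U87TR. It rose strongly from a low level in U251TR and fell slightly from a high one in U87TR; the difference was -3.02 (SE 0.15, adjusted p = 3.29e-08). ITGA2, an integrin chain that binds collagen, had a difference of -3.20 (SE 0.20), and its fall in U87TR missed the threshold in 6 of 21 alternatives. Of 19 genes read as output of MAPK signalling, 8 rose and 6 fell in U251TR, while 1 rose and 8 fell in U87TR. The change was lower in U87 in 10 of the 19 and higher in 3, and 6 were lower with median-of-ratios factors or quantile normalization. DUSP6, a phosphatase that acts on ERK, stood at 18.9, 17.8 and 20.5 FPKM in U251MG, 62.7, 56.4 and 54.1 in U251TR, 33.9, 38.6 and 55.2 in U87MG, and 22.4, 24.9 and 24.8 in U87TR. U87MG replicate 3 was the high library of its group, and the difference of -2.32 (SE 0.21) was -2.12 without it. SPRY1, another feedback inhibitor, had a difference of -2.41 (SE 0.23).

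Detoxifying genes moved both ways. MT1E, a metallothionein that binds zinc and copper, stood at 23.5, 39 and 27.2 FPKM in U251MG, 0, 0.06 and 0 in U251TR, 393, 408 and 339 in U87MG, and 569.7, 548 and 617 in U87TR. U251TR had next to none, and U87TR rose from an already high level. The difference was 5.50 (SE 0.21, adjusted p = 3.19e-09), and reads may be shared among the near-identical metallothioneins. ALDH1A3, an aldehyde dehydrogenase used as a stem cell marker, stood at 1.35, 0.93 and 1.7 FPKM in U251MG, 8.41, 8.61 and 8.39 in U251TR, 231, 289 and 197 in U87MG, and 70.7, 99.3 and 98.2 in U87TR and was an opposite change, with a difference of -3.45 (SE 0.24, adjusted p = 4.09e-07). It rose in U251TR but remained far below every U87 library. ALDH3A1, a detoxifying member of the same family, did not exceed 0.23 FPKM in U87 and had a difference of -3.85 (SE 0.20). Neither family moved as a whole. Of 15 aldehyde dehydrogenase genes tested the change was higher in U87 in 4 and lower in 5, and of 8 metallothionein genes in 4 and 3.

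Some results for stress and glycolysis genes depended on single libraries. HSPA5, the main chaperone of the endoplasmic reticulum, stood at 725, 189 and 685 FPKM in U251MG, 243, 229 and 248 in U251TR, 306, 307 and 327 in U87MG, and 495, 448 and 459 in U87TR. Its difference was 1.49 (SE 0.53, adjusted p = 0.0376), with neither line's change called, and it missed the threshold in 12 of 21 alternatives, whereas without U251MG replicate 2 it was 2.12 (adjusted p = 1.83e-08). CRELD2, a secreted protein of the same stress response, rose in U251TR and had a difference of -1.51 (SE 0.15). Of 18 genes of this unfolded protein response tested, 12 rose and none fell in U251TR, while 4 rose and none fell in U87TR. The change was lower in U87 in 6 of the 18, beside 32.1% of all genes, and higher in 1. Leaving out single libraries gave 5 to 8 lower and 0 to 3 higher. SLC2A1, the main glucose transporter, had U87MG levels of 49.4, 67.6 and 182 FPKM and a difference of 2.08 (SE 0.49), which was 2.63 without U87MG replicate 3. Its fall in U251TR missed the threshold in 3 of 21 alternatives (adjusted p up to 0.0641), and its rise in U87TR, which did not pass as deposited (adjusted p = 0.0525), passed in 4 of 21, under each of the 3 other scalings and without U87MG replicate 3. Of 26 glycolysis and hypoxia genes 4 were higher in U87 and 3 lower on all libraries, and 13 and 3 without U87MG replicate 3. Of 24 amino acid response genes 1 was higher and 2 lower on all libraries, and 11 and 2 without U251MG replicate 2.

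**Figure D4:**
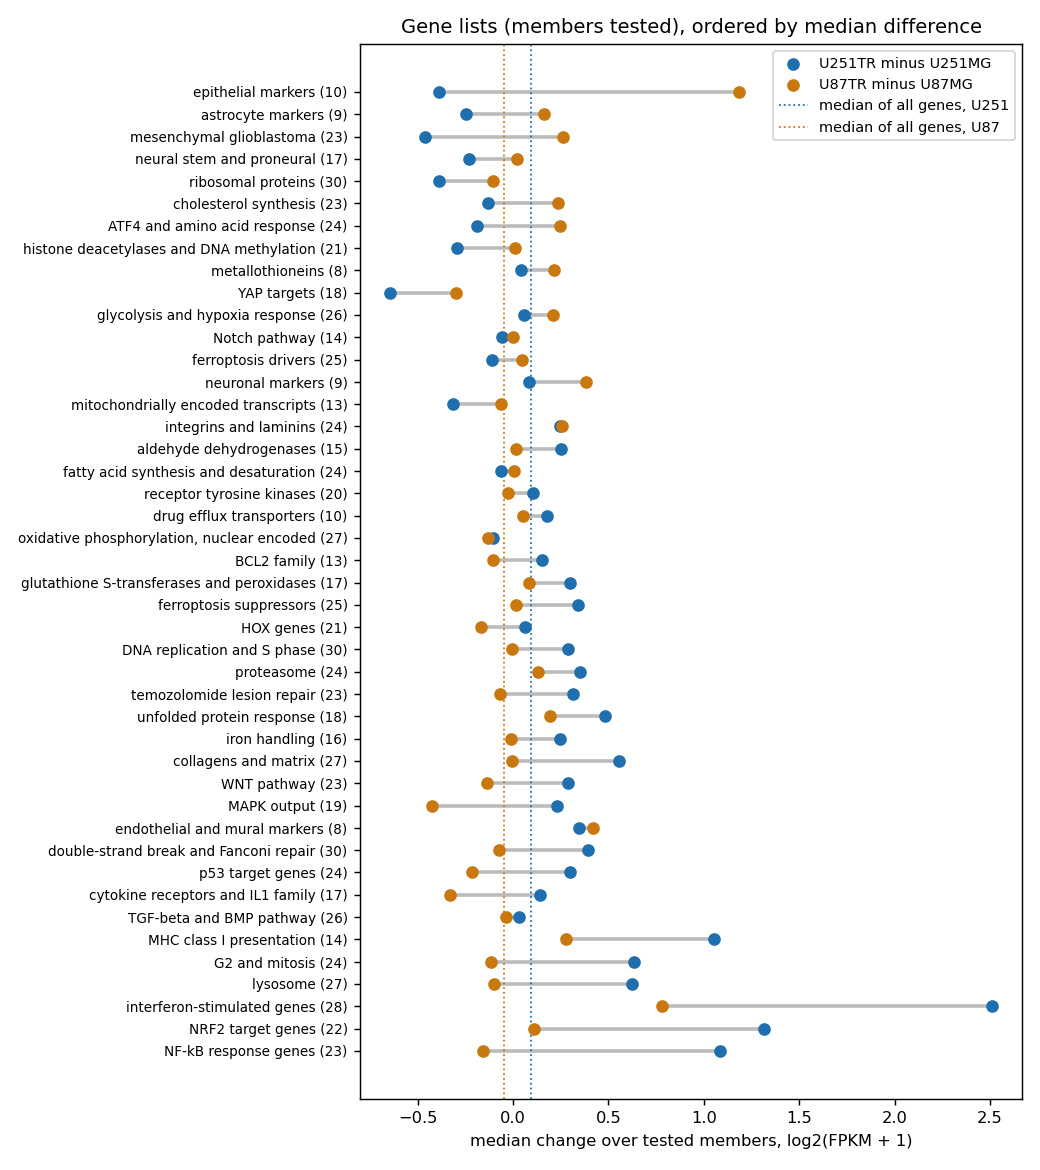
Median change over the tested members of each gene list with at least 8 of them, in U251 (blue) and U87 (orange), in log2(FPKM + 1); the dotted lines mark the medians of all genes, 0.10 and -0.05. The widest gaps with U251 above are those of NF-kB response, NRF2 target and interferon-stimulated genes, and epithelial markers have the widest gap with U87 above.

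The median difference varied among chromosomes. A chromosome could be assigned to 13635 of the tested genes by symbol. The median difference was lowest on chromosome 18 (-0.49 over 191 genes), followed by chromosomes 11 (-0.43), 7 (-0.41), 15 (-0.39), 1 (-0.36) and 2 (-0.35), and it was highest on X (0.23 over 495 genes). On chromosomes 1, 2, 7 and 15 the departure lay in U251, with medians of 0.37, 0.34, 0.35 and 0.34 where the U87 medians ran from -0.06 to 0. On chromosomes 11 and 18 it lay in U87, with medians of -0.25 and -0.26. On X the U251 median was -0.22. These are descriptions of neighbouring and not independent genes, and copy number was not measured here.

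**Figure D5:**
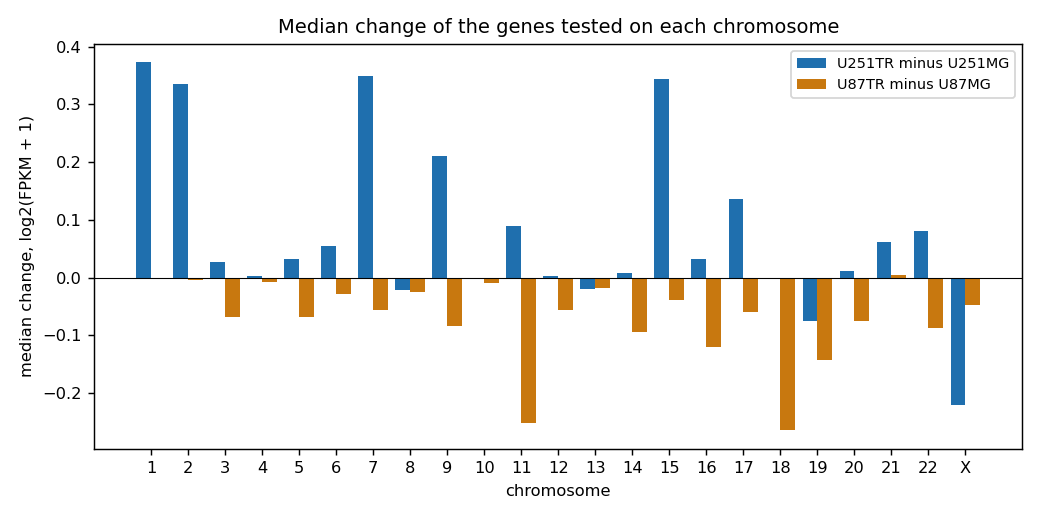
Median change of the tested genes on each chromosome, in U251 (blue bars) and U87 (orange bars), in log2(FPKM + 1). Chromosomes 1, 2, 7 and 15 stand out in U251, and chromosomes 11 and 18 in U87.

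Whether the resistant lines had come closer to each other than their parents were was described by the distance between the lines before and after, which uses the same libraries as the classes and was therefore not tested. Over all genes tested, 49.2% lay closer together in the resistant lines. Of the opposite changes this held for 45.9% of those up in U251TR and 53.8% of those down in U251TR. Among changes in 1 line it held for 41.7% of the genes that rose and 68.5% of those that fell in U251TR, and for 32.6% of those that rose and 52.4% of those that fell in U87TR.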

How the data were processed

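The deposited table holds gene expression by symbol for 12 libraries. Per the labels' protocols, RNA whose integrity number was 6.8 or higher went into libraries read as 150 bp pairs. The submitters' processing notes name STAR 2.5.2b, RSEM 1.2.31 and hg19, while the design text gives hg38, so no coordinate is taken from the table. The deposited values are FPKM; no header or label names this unit, and it was inferred from the values. They hold no counts, so the sequencing depth behind a value is unknown and no count model was used. Strand use in counting is not given in the sources used here, so overlapping and antisense genes may share reads. Symbols turned into dates by a spreadsheet (27) were left out.

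From these values log2(FPKM + 1) was computed for genes with 1 FPKM or more in at least 3 libraries. In limma 3.58.1, run in R 4.3.3, 1 model of group means took in every library, moderated by trend and robustly, with the contrast (U87TR - U87MG) - (U251TR - U251MG). Tests were two-sided, with Benjamini-Hochberg adjustment over the 15449 genes tested and a threshold of 0.05. Folds of genes near 1 FPKM are understated on this scale. The script was tested on simulated data.

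Groups were taken from the sample titles. The members, the 46 gene lists and the rules were chosen with earlier results of these data known. Genes named for size had a plain symbol and a mean of 10 FPKM or more in the highest group. They were the 8 per direction with the largest smaller change among opposite changes, and the 6 per class with the largest difference among changes in 1 line, with no overlap in the changed line. In the latter the 95% interval of the other line's change also lay within 1.5-fold. They were also the 3 per direction of the same-direction class, up to 2 per gene list, and 16 fixed genes of repair and ferroptosis. Other named genes were chosen after their values were seen. Some genes that these rules name are not reported here. Alternatives were pseudocounts of 0.1 and 5, other filters, 3 other scalings, no moderation by trend, a replicate block, a 2-fold limit and leaving out each library. Promoter windows were matched by symbol to RefSeq, build GRCh38.p14.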

Additional observations from a re-analysis of the deposited data

Results flagged for a closer look

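The genes below were singled out because the change in 1 line differed from that in the other by limma's test of the difference itself, at an adjusted p under 0.05 over all genes tested. Each value is the log2 change in U87TR minus that in U251TR. Standard errors and levels stand above for many of the genes, though not for all of them. The U87TR libraries come from another code block, and in none of these values can that block and resistance be told apart.

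Among genes that rose in U251TR and fell in U87TR the difference was -4.09 for CDH11, -4.06 for CARD16, -4.13 for GDF15, -6.45 for MEG3, -5.55 for IL13RA2, -4.72 for EFEMP1, -6.06 for FOXF1, -3.4 for GMPR and -3.67 for OSGIN1. Further genes of this class had -5.86 for IL1B, -1.34 for XRCC1, -2.44 for CEBPB, -3.02 for LTBP1, -3.2 for ITGA2, -2.32 for DUSP6, -3.45 for ALDH1A3, -2.91 for HEXA and -0.51 for TFRC. In those that fell in U251TR and rose in U87TR it was 4.71 for KRT80, 4.01 for TUFT1, 3.43 for SEMA3B, 3.76 for NES, 3.23 for SCD, 4.19 for KRT7 and 5.01 for OLFML2A. Further genes of this class had 3.6 for S100A4, 3.15 for FADS2, 2.42 for LFNG, 2.93 for TNC and 5.5 for MT1E. Genes that rose by these calls in U251TR alone had differences of -7.24 for MSMP, -5.58 for CADM3, -5.55 for SPARCL1, -5.23 for BPIFB4, -4.52 for B3GAT1, -4.45 for GGT5 and -2.86 for FTL. Further genes of this class had -3.41 for IFI44L, -2.72 for IFITM1, -1.98 for PSMB9, -4.59 for CCL2, -3.7 for IL4R, -1.52 for AURKA and -1.48 for KIF2C. Next in this class came -1.58 for FANCG, -1.42 for FANCI, -1.51 for CRELD2, -2.41 for SPRY1, -3.85 for ALDH3A1, -2.81 for CTSS and -1.6 for FTH1. The remaining genes of this class had -1.99 for NQO1, -4.39 for CRIP2, -3.56 for SQRDL, -3.1 for TMEM54, -3.01 for ANXA6, -3.75 for IL6 and -1.18 for TOP2A. For those that by the same calls fell in U251TR alone the values were 5.72 for ANKRD1, 4.45 for MAGEA12, 4.31 for NTM, 4.31 for F13A1, 4.16 for TOX3, 3.93 for RGS8, 2.25 for SAT1 and 1.19 for RPS4X. Further genes of this class had 2.08 for SLC2A1, 2.75 for PDGFRA, 0.6 for MSH6, 0.76 for ACSL4, 2.21 for TPST2, 2.15 for TWIST1, 2.14 for PHF11 and 2.13 for SMS. Where U87TR alone had a rise they were 3.92 for ANXA8, 3.41 for SYT13, 3.29 for ABCC2, 3.02 for RNASE1 and 2.56 for SRGN. Further genes of this class had 2.42 for ACSM5, 1.67 for RNASEH2B, 1.45 for PRRC2B, 1.3 for PVRL1 and 1.21 for STK38L. Falls in U87TR alone had values of -7.14 for CD81, -5.79 for EHD2, -4.23 for PHLDA2, -4.15 for SNX6, -3.76 for MAGEA1, -3.52 for SERPINB7 and -4.43 for E2F7. Changes of the same direction and unequal size gave -7.17 for CHI3L1, 4.54 for MGMT, -3.79 for RARRES3, 4.27 for CXCL14, 2.63 for KCTD4 and 2.47 for MMP14. Further genes of this class had -1.64 for HLA-B, 1.38 for RPL10, -3.41 for GFAP, -1.06 for AIFM2 and -2.18 for AKR1C1. With neither line called on its own, the difference was 1.49 for HSPA5.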

How the results depend on the processing

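On all 12 libraries 7350 genes were called for the difference between lines, and in the alternatives without a 2-fold limit the count ran from 5842 to 8425. Leaving out single libraries gave 6537 to 8425 called, 2087 to 2773 of them higher in U87 and 4407 to 5652 lower. It gave 537 to 1214 opposite changes up in U251TR and 168 to 379 down in U251TR, where the low ends came without U87MG replicate 2 and the high ends without U251MG replicate 2. It gave 299 to 783 changes of the same direction, with the same libraries at the ends. Changes in 1 line ranged from 2451 to 2840 up and 1232 to 1511 down in U251TR, and from 366 to 502 up and 629 to 922 down in U87TR.

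Median-of-ratios factors gave 528 opposite changes up in U251TR and 398 down, and quantile normalization 539 and 411 with 2137 falls in U251TR alone. A filter at 5 FPKM left 268 rises in U87TR alone. With a limit of 2-fold on the difference and on each line's own change there were 2846 called, 903 higher in U87 and 1943 lower. Opposite changes were then 52 and 21, since both lines had to change 2-fold. Of the 836 and 238 opposite changes, 575 and 167 had a difference of at least 2-fold. Under the limit 1016 and 479 were rises and falls in U251TR alone, 182 and 270 in U87TR alone, and 44 of the same direction. Here a change in 1 line alone can include a called change under 2-fold in the other. Fewer genes pass there by construction of the limit. The cause of the other shifts was not tested.

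Of the 107 named genes, 4 of 2247 values of the difference reversed. GPX4 came to 0.14 with median-of-ratios factors, and ran from -0.13 to 0.03 over the leave-one-out fits, the latter without U251TR replicate 3, and was 0 without U87MG replicate 2. SLC7A11 ran from -0.54 to 0.12, the latter without U251MG replicate 2. Another 16 values no longer passed, 12 of HSPA5 and 4 of MSH6, and 1 passed that had not, of HMOX1.

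The replicate numbers did not pair the samples. Deviations of same-numbered parental and resistant libraries correlated across genes at -0.05, 0.12 and 0.02 in U251 and at -0.06, 0.06 and -0.05 in U87. With a replicate block 7202 genes were called, 2332 higher in U87 and 4870 lower, in place of 7350. Not every library correlated best with its own number.

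The table holds no counts, so the error of low values cannot be separated from the spread between 3 libraries. Each line has 1 resistant derivative, and the U87TR code block cannot be told apart from resistance in U87.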
